A study of Mus musculus with 3 samples.

Results

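Fcrls Hpgds macrophages were described here, C1q-expressing cells of the infarcted mouse heart that carried transcripts of Fcrls, an Fc receptor-like scavenger receptor of mouse myeloid cells, and of Hpgds, the haematopoietic synthase that turns prostaglandin H2 into prostaglandin D2. A cell with at least 200 detected genes was a member if it had at least 5 molecules of Fcrls and at least 1 of Hpgds, and if C1qa, C1qb and C1qc together made up at least 0.1% of its molecules. Upper limits kept other states out: at most 1 molecule of Arg1, at most 1 of Lyve1, at most 2 of Fabp4, at most 1 of Prg4 and Gata6 together, and the MHC class II genes H2-Aa, H2-Ab1, H2-Eb1 and Cd74 together under 1% of molecules. Cycling cells (Top2a and Mki67 together above 2) and cells with any Cd3e, Cd3d, Cd3g or Cd79a molecule were left out. The rule found 2323 members among 25762 cells. A further 9097 cells met the C1q, cycling, Cd3 and Cd79a limits and served as the other C1q cells.

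The study isolated CD45-positive leukocytes from infarcted myocardium after permanent ligation, in F7fl/fl CX3CR1Cre mice and in F7fl/fl WT mice, at several times after the infarct. All hearts therefore carried floxed alleles of F7, the gene of coagulation factor VII, and in some of them Cre was expressed from Cx3cr1, a gene active in monocytes and many macrophages. Dead cells were removed, CD45 microbeads selected the cells, and the cells of each heart received a sample tag before pooling into 3 multiplexed libraries for BD Rhapsody single-cell sequencing of polyadenylated RNA. Neither the labels nor the file headers used here give the genotype, the time or the age behind a tag, so genotypes and times were not compared, and each test set cells of a heart against other cells of that heart.

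Macrophages that carry C1q fall into states that differ by origin, by place and by what they have engulfed. Fcrls, Gpr34, P2ry12, P2ry13, Olfml3, Tmem119 and Cx3cr1 are best known as signature genes of microglia, the macrophages of the brain, while Lyve1, Folr2 and Timd4 mark long-lived resident macrophages of the heart. Hpgds acts in the eicosanoid pathway, in which cyclooxygenases (Ptgs1, Ptgs2) make prostaglandin H2, terminal synthases turn it into single prostaglandins, and the dehydrogenase Hpgd breaks prostaglandins down.

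Library 1 held 7 tags, library 2 held 5 and library 3 held 6, with between 10152522 and 62344127 molecules per tag. The libraries differed in beads, pipeline release and the use of intronic reads, per the file headers, so a library difference cannot be told apart from these or from the mix of genotypes and times in it. The median member had 17866 molecules, the median other C1q cell 18186. Libraries 1 and 2 shared 4 cell indexes, libraries 1 and 3 shared 3 and libraries 2 and 3 shared 0. In summed counts of a heart's cells, more RNA per cell and more cells with the RNA cannot be told apart.

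Promoters of 4 genes are printed. Fcrls and Hpgds define the cells, while P2ry13 and P2ry12, neighbours on chromosome 3, are not in the rule and were higher in the members. Within the upper limits, P2ry13 and P2ry12 were each detected in more of the cells with the most Fcrls than of those with 0. Their higher levels are therefore not independent of the rule. The sequences come from RefSeq on GRCm38.p6, run 5′ to 3′ on the gene's strand from 250 bases before the start to 50 bases after it, and show in capitals the motif GAGGAA or its reverse complement TTCCTC, the core that PU.1 of the ETS family binds. They lie at chr3:87263475-87263774 (minus strand) for Fcrls, chr6:65144681-65144980 (minus strand) for Hpgds, chr3:59210833-59211132 (minus strand) for P2ry13 and chr3:59262936-59263235 (minus strand) for P2ry12.
Fcrls: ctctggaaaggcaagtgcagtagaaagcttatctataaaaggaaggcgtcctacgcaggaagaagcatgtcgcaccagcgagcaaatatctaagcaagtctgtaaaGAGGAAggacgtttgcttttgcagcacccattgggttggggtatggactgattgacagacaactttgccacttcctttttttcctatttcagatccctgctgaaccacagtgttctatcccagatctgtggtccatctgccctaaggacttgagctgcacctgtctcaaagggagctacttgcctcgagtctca
Hpgds: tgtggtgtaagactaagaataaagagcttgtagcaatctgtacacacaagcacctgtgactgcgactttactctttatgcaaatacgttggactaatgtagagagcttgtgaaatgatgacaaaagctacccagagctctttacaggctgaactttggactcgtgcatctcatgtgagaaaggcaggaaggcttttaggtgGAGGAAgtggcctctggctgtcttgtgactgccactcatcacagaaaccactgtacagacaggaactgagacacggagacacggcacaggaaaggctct
P2ry13: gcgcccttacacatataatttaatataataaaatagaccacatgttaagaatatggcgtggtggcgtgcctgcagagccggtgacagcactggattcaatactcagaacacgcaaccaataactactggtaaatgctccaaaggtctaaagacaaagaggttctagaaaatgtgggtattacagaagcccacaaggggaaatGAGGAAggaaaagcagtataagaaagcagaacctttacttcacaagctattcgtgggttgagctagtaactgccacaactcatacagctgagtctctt
P2ry12: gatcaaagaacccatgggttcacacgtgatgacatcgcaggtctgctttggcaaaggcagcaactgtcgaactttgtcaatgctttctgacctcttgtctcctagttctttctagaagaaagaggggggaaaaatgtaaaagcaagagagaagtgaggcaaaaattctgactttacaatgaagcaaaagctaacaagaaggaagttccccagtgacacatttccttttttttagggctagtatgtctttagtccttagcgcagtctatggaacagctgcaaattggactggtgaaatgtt
The motif occurred 1 time in the window of Fcrls, Hpgds and P2ry13 and 0 times in that of P2ry12. It began 144 bases before the RefSeq start of Fcrls, 49 bases before that of Hpgds and 48 bases before that of P2ry13. The outermost starts in GENCODE M21 differ for Fcrls (87263738) and Hpgds (65144908). By those starts the motif lies inside the gene in both. For P2ry13 (59210882) the starts are the same. On either strand, 28.3% of the 32851 promoter windows in the table held it. TGCTGA, a core that MAF factors bind, with its reverse complement TCAGCA, was found 1 time in the Fcrls window and 0 times in the other 3, against 19.5% of all windows. Of the 4 marker genes and the 14 microglia signature genes that were higher in the members (18 genes), 12 had a window in the table and 9 of these held GAGGAA in at least 1 of their windows. Some of these genes had more than 1 window. The 28.3% counts single windows and not genes, so it is no background for this count. A match is a run of letters and not evidence of binding.

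The members were chosen by their molecules of Fcrls, Hpgds, C1q and the genes with upper limits, and these values are given as a description. Members carried between 5 and 186 Fcrls molecules (median 21) and between 1 and 38 Hpgds molecules (median 5), and 111 members had exactly 5 Fcrls molecules, 219 exactly 1 Hpgds molecule. C1q made up 0.952% of the molecules of the median member and 0.512% of those of the median other C1q cell. Summed per heart and scaled to the total of the set (CPM), Fcrls stood at 834 CPM in the lowest, 1301 in the median and 1778 in the highest heart in members, against 156, 352 and 883 CPM in other C1q cells.

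Cells just inside and just outside the limits had the following levels, given with no test. Members with exactly 5 Fcrls molecules (111 cells) had 2112 CPM of Ms4a7, 5460 CPM of Selenop and 2.45 CPM of F7, against 2048, 4572 and 10.7 CPM in the 114 cells that missed by having 4. Members with 1 Hpgds molecule (219 cells) had 1311 CPM of Fcrls and 5377 CPM of Selenop, against 1272 and 4379 CPM in the 244 cells with 0 Hpgds that met all else. At this cut F7 went the other way, with 1.70 CPM in the members and 0.613 CPM in the cells outside. The 56 members with MHC class II at 0.8 to 1% had 1116 CPM of Fcrls, against 1027 CPM in the 48 Fcrls and Hpgds cells at 1 to 1.2%. F7 stood at 1.04 CPM in the former and 1.17 CPM in the latter.

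The other C1q cells were mixed. Of the 9097, 51.9% were past the limit of Arg1, 25.7% past that of MHC class II, 14.6% past that of Fabp4 and 66.5% had fewer than 5 Fcrls molecules. In all, 2471 of them had Fcrls and Hpgds as members do but were past an upper limit, 1658 of these past that of Arg1. For this reason 4 narrower sets were compared too: 1700 C1q cells within the same upper limits that lacked only the Fcrls or Hpgds number, 1943 C1q cells with MHC class II at 1% or more and the other limits met, 1220 cells with Fcrls and Hpgds that were past the Arg1 limit alone, and 444 cells with 2 or more Lyve1 molecules and no other limit. The last 2 sets were added after the make-up of the other C1q cells had been seen.

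The label was set beside markers of other cell types. The genes given with the rule as markers include Fcrls and Hpgds, so that their higher sum in members is fixed by the selection and is no check. Of the 9 T and NK cell markers Cd3e and Cd3d were at 0 as the rule requires, and the 9 together reached 6.59 to 75.5 CPM in members, against 2.77 to 46.5 CPM in other C1q cells. This sum was higher in members in 16 of 18 hearts and lower in 2. The 6 neutrophil markers reached 78.7 to 258 CPM in members, against 94.2 to 622 CPM, and the 6 fibroblast markers 27.1 to 823 CPM in members, against 36.0 to 1118 CPM. Sall1, a transcription factor that defines microglia in the brain, was at 0 CPM in the median heart in members, with 0.398 CPM in the highest, and a molecule of it was seen in 0.0861% of members at full depth.

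Members made up 22.4% of the C1q cells of the median heart, with 6.18% in the lowest and 41% in the highest. The median heart of library 1 had 13.6%, with hearts from 6.18 to 22.2%. Library 2 had a median of 24.9% and hearts from 12.6 to 32.2%, library 3 a median of 29.2% and hearts from 13.02 to 41%. Ranges of the 3 libraries overlapped. In library 1, tag 11 had 186 members of 837 C1q cells (22.2%, exact Clopper-Pearson 95% interval 19.4 to 25.2%), tag 10 had 53 of 857 (6.18%, 4.67 to 8.01%). Every heart held at least 47 members. Gated again after each cell had been thinned to 5000 molecules, with Fcrls at 2 or more, the median heart had 24.2% and the range was 7.31 to 38.8%.

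**Figure D1:**
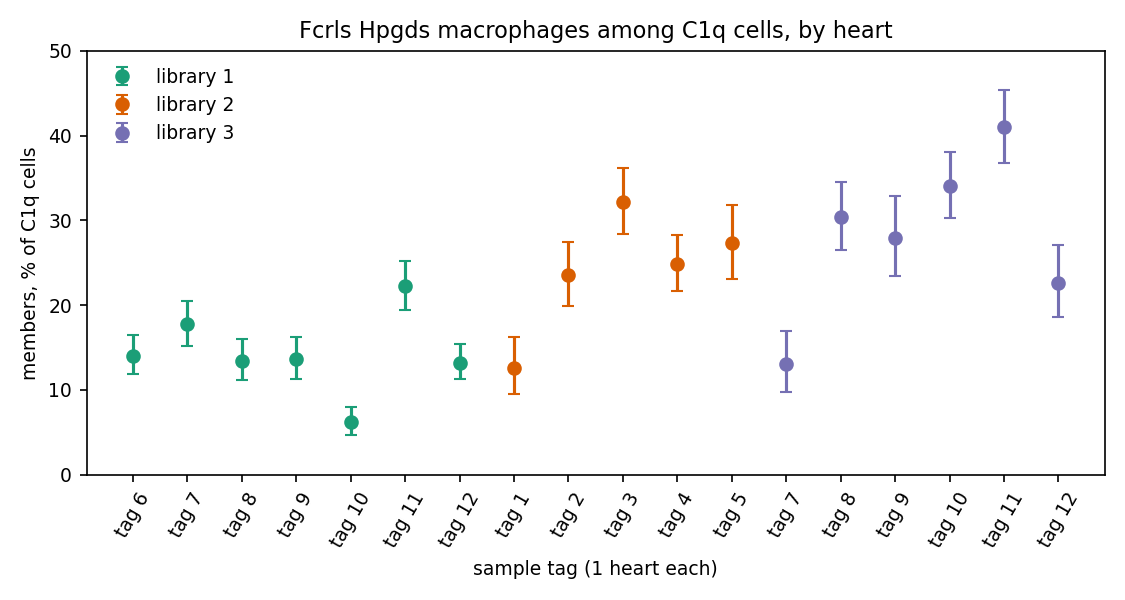
Members as a percentage of C1q cells in each of the 18 hearts (1 sample tag each), in the order of the libraries, with exact 95% intervals that cover counting error only. Hearts sit between 6.18 and 41%, and the lowest is tag 10 of library 1.

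Against the other C1q cells of the same heart, members carried more transcript of microglia signature genes, of lysosomal enzymes and of Fc receptors, and less of inflammatory, glycolytic and recruited monocyte genes. Of 10182 genes tested, edgeR called 4489, a background of 44.1% (21.9% higher and 22.2% lower in members). The genes of the rule, Ms4a7 and Selenop were not tested. Because the rule set limits on Arg1 and MHC class II, and numbers for Fcrls and Hpgds, genes that move with these had to differ. Fcrls is itself a microglia signature gene. The p-values describe how evenly a difference recurred over hearts, and are not independent of how the cells were chosen. With C1q at 0.5% or more required of the comparison cells 2839 genes were called, and without the pairing by heart 2822.

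Microglia signature genes had the largest share of higher genes among the 21 lists. Of 20 genes, 17 were tested, and 14 were higher and 1 lower in members (median log2 fold change 0.55, against 0.01 over all genes tested). Gpr34, a receptor for lysophosphatidylserine, stood at 22.1, 70.8 and 114 CPM in members (lowest, median and highest heart), against 4.27, 26.4 and 61.7 CPM in other C1q cells. Members were higher in every heart although the ranges overlapped (log2 fold change 1.51 ± 0.13 SE, edgeR adjusted p 1.41e-09, 18 of 18 hearts). P2ry13, an ADP receptor, had 17.1, 28.2 and 36.8 CPM in members, against 8.17, 13.9 and 18.1 CPM, ranges that overlapped only at their ends (log2 fold change 1.06 ± 0.07, edgeR adjusted p 7.20e-11, 18 of 18 hearts).

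P2ry12, the ADP receptor that steers microglial processes, had 49.6, 81.7 and 97.1 CPM in members, against 27.0, 43.9 and 64.5 CPM in other C1q cells (log2 fold change 0.90 ± 0.06, edgeR adjusted p 1.45e-10). Cx3cr1, the fractalkine receptor whose locus drives the Cre of this model, had 166, 303 and 678 CPM in members, against 60.1, 152 and 366 CPM (1.12 ± 0.11, edgeR adjusted p 1.31e-08). Both were higher in 18 of 18 hearts, with ranges that overlapped. Olfml3, a secreted olfactomedin-like protein, reached 149, 310 and 419 CPM in members, against 58.0, 136 and 233 CPM, a log2 fold change of 1.06 ± 0.08 in 18 of 18 hearts. Tmem119, a membrane protein of microglia, and Csf1r, the receptor for CSF1, were higher by 0.65 and 0.40 on the log2 scale. Gpr84, a fatty acid receptor, was the 1 lower gene, a call that was lost in library 1 alone, in library 2 alone, without library 3 and with C1q at 0.5% or more in the comparison cells (log2 fold change -0.53), and Sparc and Bin1 were not called.

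**Figure D2:**
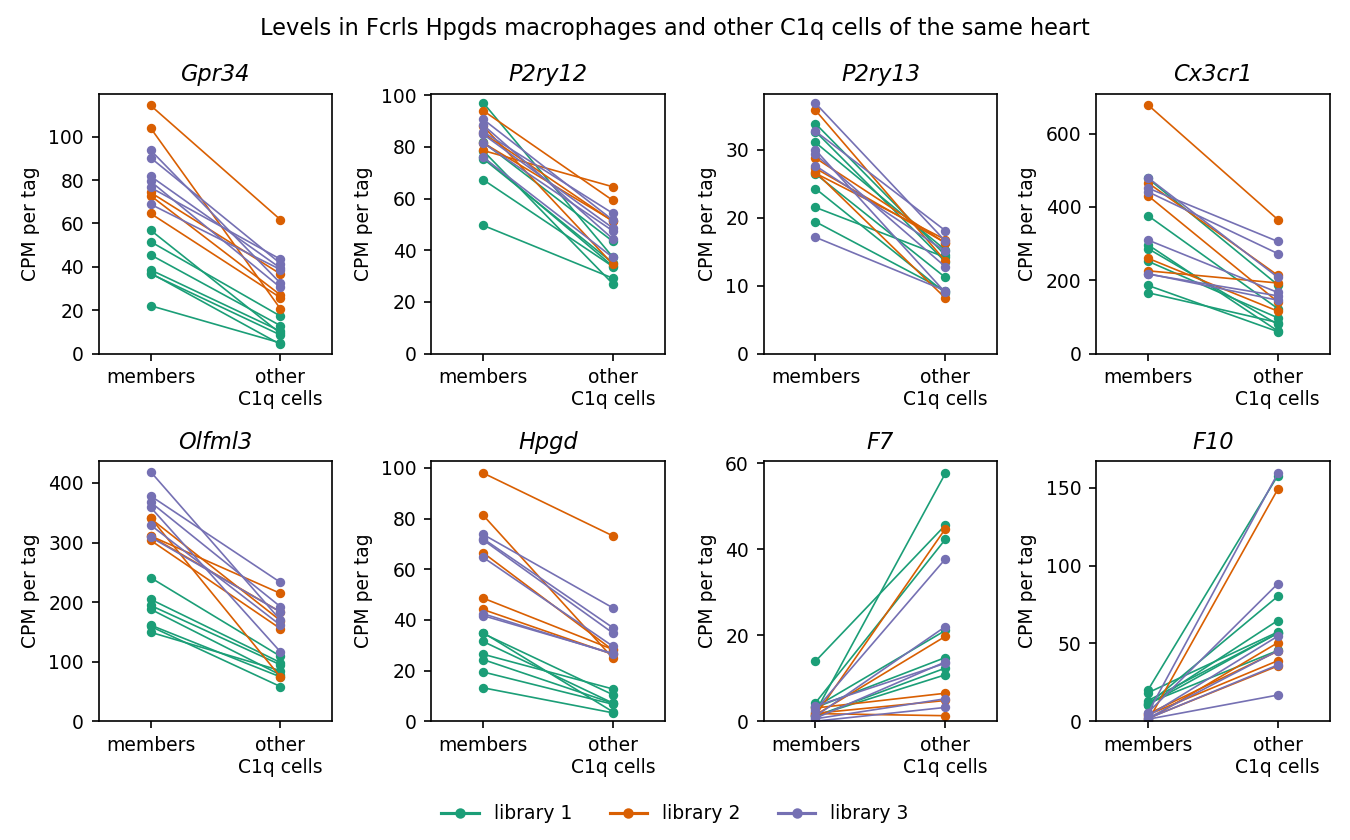
CPM of 8 genes in each heart, in Fcrls Hpgds macrophages (left) and in other C1q cells of the same heart (right), joined by a line and coloured by library. Gpr34, P2ry12, P2ry13, Cx3cr1, Olfml3 and Hpgd fall from left to right in all 18 hearts, F10 climbs in all 18 and F7 in 17.

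Levels of Gpr34 differed by library. In members, Gpr34 had a median of 38.6 CPM over the hearts of library 1, 74.3 over those of library 2 and 80.6 over those of library 3, and in other C1q cells 9.32, 27.1 and 39.1 CPM. The difference between the sets held in each library alone, with log2 fold changes of 2.08, 1.32 and 1.102.

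Taken per cell at an equal depth of 5000 molecules, Gpr34 was detected in 25.2% of members, 8.49% of other C1q cells and 2.60% of T cells without C1q, which should lack it (45.1%, 16.9% and 5.66% before thinning). P2ry12 was detected in 30.5% of members, 16.7% of other C1q cells and 3.12% of those T cells, and Cx3cr1 in 58.3%, 34.2% and 10.7%. Of the 4 receptors Gpr34, P2ry12, P2ry13 and Cx3cr1, 543 of 2304 members (23.6%) showed 0, against 52.7% of other C1q cells. MHC class II C1q cells had 24.9% with 0, near the share in members, and Cx3cr1 was detected in 66.1% of them. All 4 were seen in 45 members (1.95%), against 0.212% of other C1q cells.

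Eicosanoid genes were more often lower than higher. Of 29 listed, 23 were tested, with 6 higher and 14 lower (median log2 fold change -0.32). Against the background of 21.9% higher and 22.2% lower, the share of higher genes was near it and that of lower genes above it. Hpgd, the dehydrogenase that inactivates prostaglandins, stood at 13.2, 43.3 and 98.0 CPM in members, against 3.29, 26.4 and 73.2 CPM in other C1q cells (log2 fold change 1.203 ± 0.133, edgeR adjusted p 1.26e-07, 18 of 18 hearts). The ranges overlapped, and every heart was higher in members. Pla2g7, which degrades platelet-activating factor, and Ptger4, a prostaglandin E2 receptor, were higher too (0.54 and 0.28). The cyclooxygenases were lower, Ptgs1 by a log2 fold change of -0.71 ± 0.16 and Ptgs2 by -0.97 ± 0.12, as were the prostaglandin E synthase Ptges (-2.04 ± 0.28), the leukotriene enzymes Alox5 (-1.13 ± 0.23) and Ltc4s (-2.50 ± 0.20), and Alox15 (-4.75 ± 0.21), a lipoxygenase of cavity macrophages.

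Lysosomal and Fc receptor genes were mostly higher. Of 25 lysosomal genes tested, 16 were higher and 5 lower (median 0.21), among them Ctsf, a cysteine protease, at 4.995, 24.0 and 38.9 CPM in members, against 2.04, 14.2 and 25.4 CPM in other C1q cells (log2 fold change 1.03 ± 0.12, edgeR adjusted p 2.51e-07). Ctsk, a collagen-degrading cathepsin, was lower (-1.26 ± 0.15). Of 8 Fc receptor genes tested, 6 were higher and 0 lower, and the 2 others, Fcgr4 and Trim21, were not called. Fcrl1, an Fc receptor-like gene known from B cells, had 16.7, 23.8 and 37.4 CPM in members, against 5.01, 10.9 and 15.9 CPM, so that its ranges did not overlap (1.16 ± 0.12, 18 of 18 hearts, edgeR adjusted p 4.71e-08). Only 0.137% of the genes tested had ranges without overlap in that direction. The 5 B cell markers summed to 48.1 to 149 CPM in members (median 103), against 14.1 to 168 CPM (median 67.1), and were higher in 13 of 18 hearts; their part in the Fcrl1 result was not tested.

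Lists of receptors, secreted factors and regulators were divided. Macrophage transcription factors had 9 of 34 higher and 9 lower, chemokine receptors 4 of 11 higher and 5 lower, and growth factors and cytokines 8 of 22 higher and 6 lower. The background over all genes tested was 21.9% higher and 22.2% lower, and the transcription factors were near it in both directions. Gas6, the bridge between dying cells and the receptor Mertk, had 153, 217 and 309 CPM in members, against 62.2, 134 and 184 CPM in other C1q cells (log2 fold change 0.75 ± 0.09, edgeR adjusted p 4.20e-07, 18 of 18 hearts). Mertk itself was higher by 0.50 ± 0.04, Igf1, an insulin-like growth factor, by 0.79 ± 0.10, Apoe, the lipid carrier, by 0.80 ± 0.08 and Maf, a transcription factor of macrophages, by 0.74 ± 0.05, each in 18 of 18 hearts. Scavenger receptors as a list were divided, with 8 of 24 higher and 9 lower. Marco, a scavenger receptor, was lower by -5.21 ± 0.26, Cd36, the fatty acid scavenger, by -1.17 ± 0.07, and the resident markers Timd4 and Cd163 by -3.47 ± 0.39 and -1.36 ± 0.30. The interferon list moved little, with 3 of 24 higher and 1 lower, both under the background.

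Inflammatory, glycolytic and recruitment genes were lower. Of 23 wound and inflammatory genes tested 20 were lower and 1 higher (median -1.24), of 21 glycolysis and hypoxia genes 19 were lower and 0 higher (median -0.70), and of 20 genes of recently recruited monocytes 17 were lower and 1 higher (median -1.43). Il6, the cytokine, had 0.827, 1.73 and 9.69 CPM in members, against 16.5, 67.6 and 451 CPM in other C1q cells. The ranges did not overlap, which held for 0.226% of genes in that direction (log2 fold change -4.90 ± 0.19, edgeR adjusted p 1.04e-14, 0 of 18 hearts higher). Saa3, an acute phase protein, had 3.86, 16.3 and 35.2 CPM in members, against 19.99, 402 and 1703 CPM (-4.66 ± 0.23), and Slpi, a protease inhibitor, 5.34, 12.6 and 23.6 CPM, against 28.1, 256 and 1243 CPM (-4.19 ± 0.25). Alox15, Serpinb2, Prg4 and Gata6 belong to cavity macrophages. With Fn1, these 5 markers summed to 133 to 633 CPM in members, against 868 to 6779 CPM, lower in 18 of 18 hearts. The rule limits Prg4 and Gata6, so part of the lower sum was fixed by the selection. Over hearts, the median in members was 333 CPM for Fn1 alone and 340 CPM for the sum. In C1q cells within the same upper limits the sum was 252 to 1125 CPM. The part of cavity macrophages in the lower genes was not tested. At equal depth, Il6 was detected in 1.17% of members and 8.38% of other C1q cells. Within the same upper limits the share was 1.52%, and in MHC class II C1q cells 1.88%. Saa3 took the values 5.99, 13.95, 6.065 and 4.775% in the same order, and Slpi 4.69, 13.58, 8.01 and 6.31%. Within the same upper limits Saa3 and Slpi were called lower, and Il6 did not pass the filter on low counts. The part of cells past the upper limits in these falls was not tested.

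**Figure D3:**
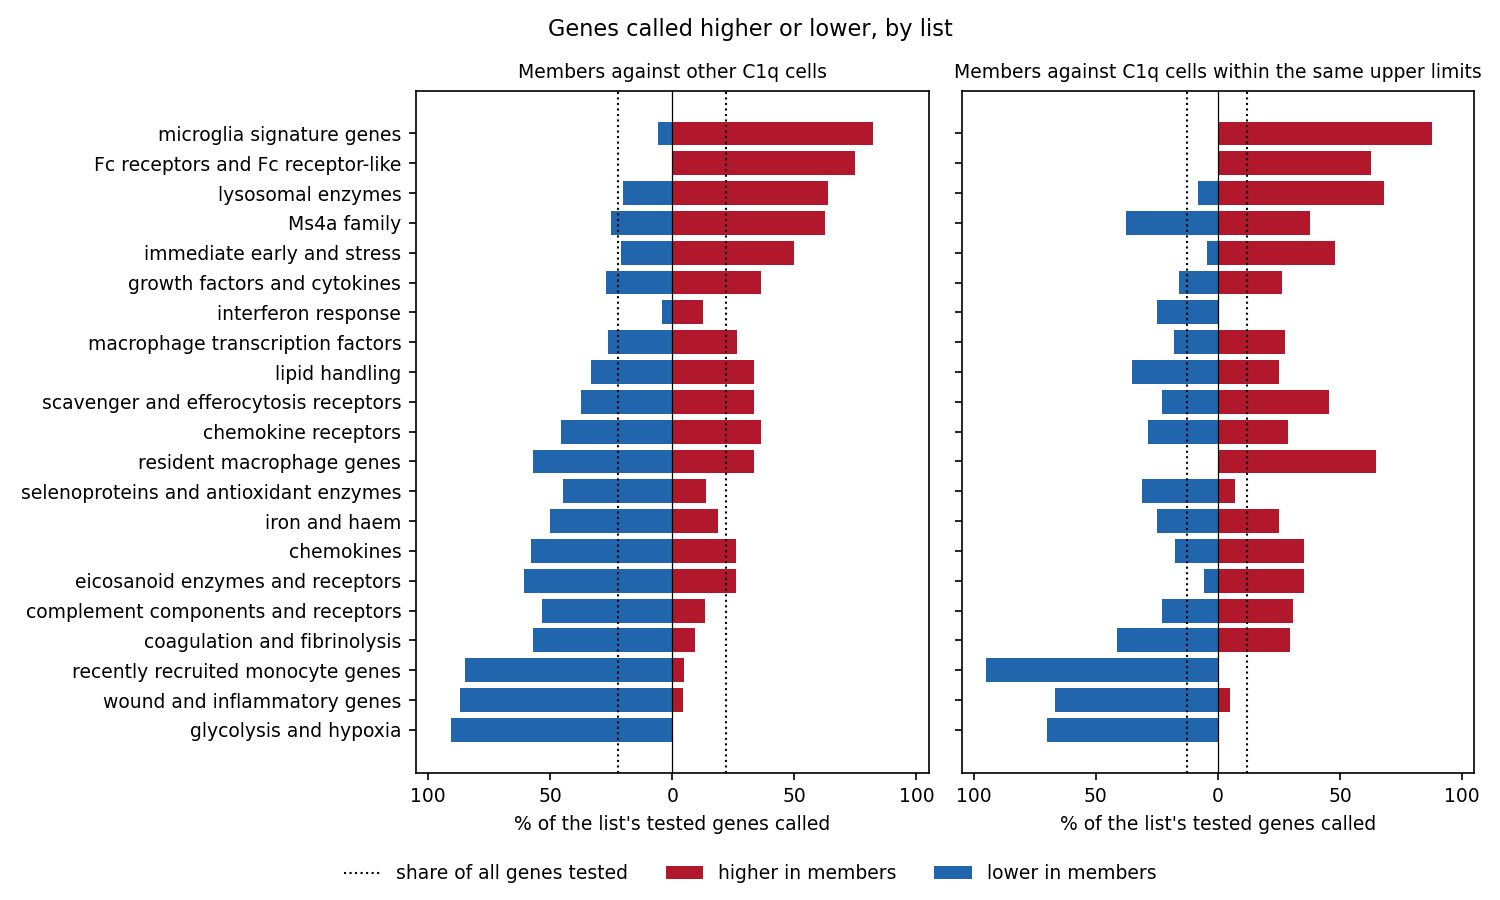
Percentage of each list's tested genes called higher (to the right) or lower (to the left) in Fcrls Hpgds macrophages, against other C1q cells and against C1q cells within the same upper limits, and the same percentages over all genes tested as dotted lines. Microglia signature genes reach 14 of 17 and 14 of 16 higher, while glycolysis and hypoxia genes have 0 higher in both comparisons.

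F7, the floxed gene, was lower in the members. It had 0, 1.80 and 13.96 CPM in members (lowest, median and highest heart), against 1.27, 14.3 and 57.6 CPM in other C1q cells. The level was lower in members in 17 of 18 hearts, and the ranges overlapped (log2 fold change -2.73 ± 0.21, edgeR adjusted p 3.85e-10). At a depth of 5000 molecules, 22 of 2304 members (0.955%, exact 95% interval 0.599 to 1.44%) had an F7 molecule, against 657 of 8485 other C1q cells (7.74%, 7.18 to 8.33%) and 7 of 577 T cells without C1q (1.21%, 0.489 to 2.48%). The share in members did not exceed that in these T cells, and expression above it was not detectable at this depth. The T cells are no clean floor, since C1qb was seen in 38.3% of them. Among MHC class II C1q cells, 19 of 1759 (1.08%) had an F7 molecule, near the share in members. The shares depended on library 1: without it F7 was detected in 11 of 1437 members (0.765%), against 151 of 3409 other C1q cells (4.43%). The Cre of the model is driven from Cx3cr1, which was higher in members, and since tags carry no genotype here, the part of Cre-mediated deletion in the F7 level was not tested.

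Factor X and tissue factor went with F7. F10, the substrate of factor VIIa, had 0, 4.90 and 19.98 CPM in members, against 16.8, 55.5 and 159 CPM in other C1q cells (log2 fold change -3.07 ± 0.19, edgeR adjusted p 1.47e-11, lower in 18 of 18 hearts). F3, tissue factor, the receptor of factor VIIa, had 0, 0.575 and 2.80 CPM, against 2.58, 9.97 and 66.0 CPM (-4.05 ± 0.26, edgeR adjusted p 2.78e-11, lower in 18 of 18 hearts), and F5, the cofactor of factor Xa, 0, 3.21 and 10.6 CPM, against 8.04, 41.3 and 225 CPM. The ranges of F10, F3 and F5 overlapped at their ends. Of 21 coagulation and fibrinolysis genes tested, 12 were lower and 2 higher. The higher genes were Gas6 and Vkorc1, which recycles vitamin K. At a depth of 5000 molecules F10 was detected in 2.43% of members, 17.6% of other C1q cells and 9.53% of T cells without C1q, so those T cells held more F10 than the members did. In MHC class II C1q cells F10 was detected in 5.91%. F3 and F5 were near the members there, with 0.398 and 1.31%, against 0.434 and 1.48% in members.

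Within the same upper limits, where the cells compared lacked only the Fcrls or Hpgds number, the microglia genes were higher too. The members are the same cells as before, and Fcrls, by which the sets were split, is itself a microglia signature gene. Genes that move with Fcrls therefore had to differ, and this is no separate support for the first comparison. Of 8863 genes tested 2176 were called (24.6%, with 11.8% higher and 12.8% lower). Of 16 microglia signature genes tested 14 were higher and 0 lower, and of 17 resident macrophage genes 11 were higher and 0 lower. Gpr34 differed by a log2 fold change of 1.48 ± 0.13 (edgeR adjusted p 1.33e-09, 18 of 18 hearts), Hpgd by 1.18 ± 0.12 and P2ry12 by 0.97 ± 0.07. The members had more molecules per cell than these comparison cells, with medians of 17866 and 12378. With both sets limited to cells of 10000 to 40000 molecules, the 16 genes named by rule in this comparison, F10 among them, were called in the same direction.

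Of the genes named by size, Mrc1 is on the resident macrophage list, while Abca9 and Npl are on no resident list. Mrc1, the mannose receptor, had 425, 644 and 1251 CPM in members, against 138, 318 and 690 CPM in the comparison cells (log2 fold change 1.03 ± 0.08, edgeR adjusted p 2.25e-10, 18 of 18 hearts). Abca9, a transporter of the ABCA family, had 65.5, 106 and 160 CPM, against 27.7, 49.9 and 91.9 CPM (1.11 ± 0.08), and Npl, which degrades sialic acid, 13.02, 32.6 and 55.7 CPM, against 2.54, 14.5 and 30.8 CPM (1.05 ± 0.13). All 3 had overlapping ranges. Folr2, a folate receptor of resident macrophages, was higher here (0.75 ± 0.11), although against all other C1q cells it was lower (-0.41 ± 0.09), and Cd163, the haemoglobin scavenger, likewise (1.18 ± 0.34, against -1.36 ± 0.30).

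Lower in members were genes of monocytes. Of 20 recently recruited monocyte genes 19 were lower and 0 higher (median log2 fold change -1.21). Ly6c2, the classical monocyte antigen, had 2.35, 12.2 and 107 CPM in members, against 12.7, 95.6 and 888 CPM (-2.81 ± 0.21, edgeR adjusted p 6.42e-11, lower in 18 of 18 hearts). Cd24a, a surface sialoglycoprotein, had 5.34, 14.9 and 24.6 CPM, against 40.4, 55.3 and 109 CPM, without overlap, which held for 0.0338% of genes in that direction (-2.04 ± 0.11). S100a4 (-1.26 ± 0.07), Clec4e, a receptor for mycobacterial cord factor (-1.29 ± 0.10, but -0.303 and not called with C1q at 0.5% or more in the comparison cells), and F10 (-2.43 ± 0.17) were lower as well. The 5 monocyte markers summed to 180 to 1170 CPM in members (median 331), against 260 to 2581 CPM (median 760), lower in 18 of 18 hearts, and the 6 neutrophil markers to a median of 118 CPM in members, against 320 CPM. Their part in these results was not tested. F7 and F3 did not pass the filter on low counts here; F7 had a median of 1.80 CPM in members and 6.60 CPM in the comparison cells. With C1q at 0.5% or more required of the comparison cells, 499 genes were called in place of 2176, and without library 1 it was 910.

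Detection of these genes differed by the number of Fcrls molecules. Among C1q cells within the upper limits, each thinned to 5000 molecules, Gpr34 was detected in 6.32% of the 902 cells with 0 Fcrls, 8.57% of the 385 with 1, 15.8% of the 570 with 2 to 3, 22.3% of the 691 with 4 to 6 and 33.4% of the 1141 with 7 or more. Cx3cr1 took the values 31.4, 35.6, 44.6, 53.4 and 71.3% in the same order, and Hpgd 4.10, 5.97, 10.9, 15.6 and 19.1%. F10 ran the other way, with 15.1, 5.45, 4.21, 2.89 and 1.14%, and the first step rested on library 1: with 0 Fcrls it had 19.97%, libraries 2 and 3 had 5.13 and 4.14%. Without library 1 the values of F10 were 4.55, 4.30, 2.33, 2.33 and 0.235%. Ly6c2, a monocyte marker, moved along, with 30.2, 14.6, 9.83, 7.24 and 2.28%, or 9.44, 6.45, 3.99, 3.37 and 2.23% without library 1. Ccr2 did as well, with 59.9% in cells with 0 and 35.3% in cells with 7 or more. The part of Ly6c2 and Ccr2 in these steps was not tested. F7 was detected in 52 of the 902 cells with 0 Fcrls (5.76%) and in 5 of the 1141 with 7 or more (0.438%), with 1.82, 2.28 and 0.868% between. Without library 1 the values of F7 were 3.497, 1.075, 1.329, 1.036 and 0.3525%. Gpr34 was also at its highest in the cells with 7 or more in each library alone (23.8, 36.5 and 36.8%), and at 4.22, 9.40 and 11.8% in cells with 0. These shares are over cells pooled from hearts and are given without a test; the mix of libraries differed between the steps.

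**Figure D4:**
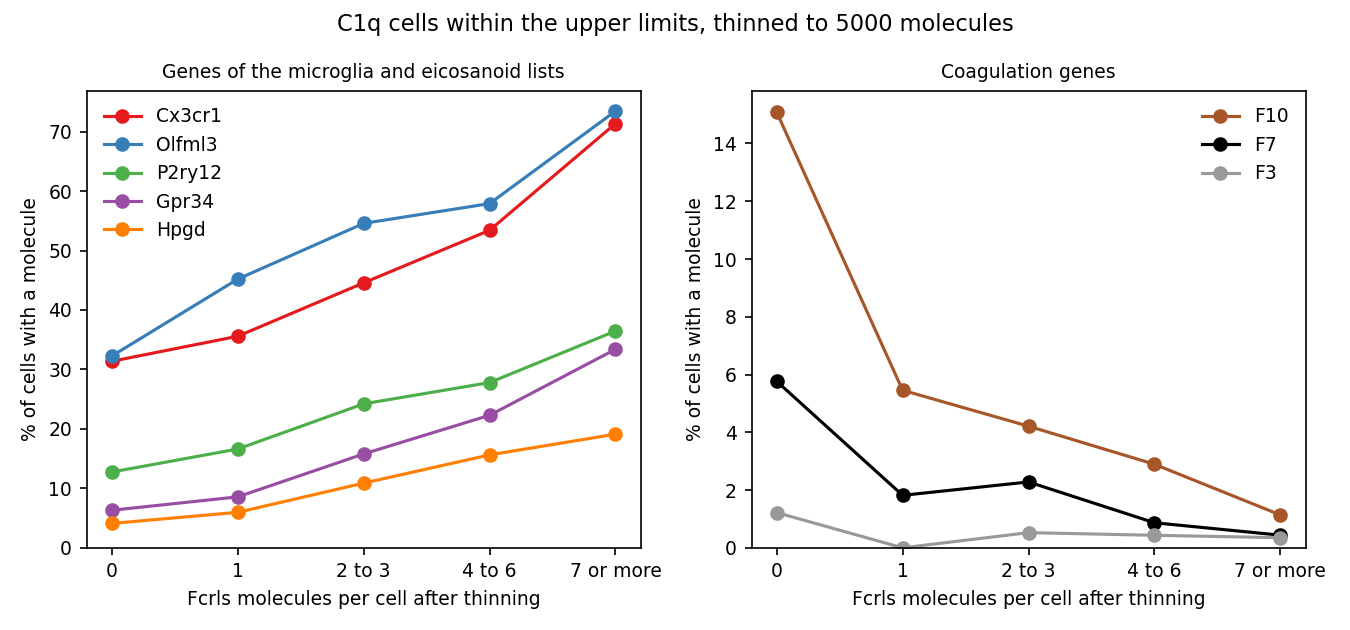
Percentage of C1q cells within the upper limits with a molecule of each gene, by Fcrls molecules per cell after thinning to 5000 molecules, pooled over hearts. On the left, Gpr34 climbs through 6.32, 8.57, 15.8, 22.3 and 33.4%, and on the right F10 falls through 15.1, 5.45, 4.21, 2.89 and 1.14%, or 4.55, 4.30, 2.33, 2.33 and 0.235% without library 1.

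Against MHC class II C1q cells, 9 microglia signature genes were higher in members and 2 were lower. In 17 hearts with 20 or more cells in each set, 4481 of 8929 genes were called (50.2%, with 24.1% higher and 26.1% lower). The cells compared had fewer molecules each, a median of 12191, against 17866 in members. Of 16 microglia signature genes tested 2 were lower, Cx3cr1 (-0.16 ± 0.07, edgeR adjusted p 0.0413, 11 of 17 hearts) and Cst3. Gpr34 was higher by 0.48 ± 0.08, and for Hpgd (-0.14 ± 0.10, edgeR adjusted p 0.228) and Tmem119 (0.01 ± 0.07, edgeR adjusted p 0.888) no difference was detected. P2ry12 (0.79 ± 0.07), P2ry13 (0.82 ± 0.10), Olfml3 (1.13 ± 0.05) and Trem2, a lipid receptor (1.06 ± 0.05), were higher in 17 of 17 hearts.

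Resident and scavenging genes were also higher than in MHC class II cells. Of 18 resident macrophage genes 15 were higher and 2 lower (median log2 fold change 1.098). Folr2 had 82.2, 142 and 208 CPM in members, against 9.79, 30.8 and 62.5 CPM, and Spp1, osteopontin, 1225, 2525 and 3847 CPM, against 179, 495 and 1015 CPM. Neither had overlapping ranges, which held for 1.11% of genes in that direction (2.22 ± 0.10 and 2.07 ± 0.15, edgeR adjusted p 8.28e-17 and 2.94e-12). Cd5l, a scavenger protein of macrophages, was higher by 2.54 ± 0.22 and Ccl8, a chemokine, by 2.18 ± 0.18. Lower in members were Ciita, the master regulator of MHC class II (3.59 CPM in the median heart, against 96.2, a difference that the rule's limit bears on), Cd209a, Dpp4 and Il2ra, which is part of the interleukin 2 receptor, and Ccr2, the receptor that recruits monocytes (-1.79 ± 0.12). Ciita, Cd209a and Dpp4 had ranges that did not overlap, which held for 0.829% of genes in that direction. The 7 dendritic cell markers, Cd209a among them, summed to 2.74 to 16.9 CPM in members, against 35.2 to 183 CPM, and the 5 B cell markers to 48.1 to 149 CPM, against 127 to 263 CPM. Their part was not tested.

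Cells that met the Fcrls and Hpgds numbers but carried 2 or more Arg1 molecules differed from the members by the Arg1 limit alone. In 14 hearts, 2097 of 9573 genes were called (21.9%, with 10.9% higher and 11% lower). Arg1 cells were deeper, with a median of 26780 molecules, against 17866 in members. Of 17 microglia signature genes 13 were higher in members and 1 lower, with Gpr34 at 1.09 ± 0.15 (edgeR adjusted p 1.16e-05) and Cx3cr1 at 0.96 ± 0.08 (edgeR adjusted p 1.98e-08), each in 14 of 14 hearts. Olfml3 was higher by 0.27 ± 0.06 and P2ry12 by 0.32 ± 0.08, and Trem2 did not pass the test (0.03 ± 0.04). Without the pairing of sets by heart 599 genes were called, and without library 1 it was 441. Hpgd had the largest rise among the named genes, with 13.2, 38.3 and 72.1 CPM in members, against 1.28, 10.8 and 27.2 CPM (1.78 ± 0.22, edgeR adjusted p 3.05e-06).

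**Figure D5:**
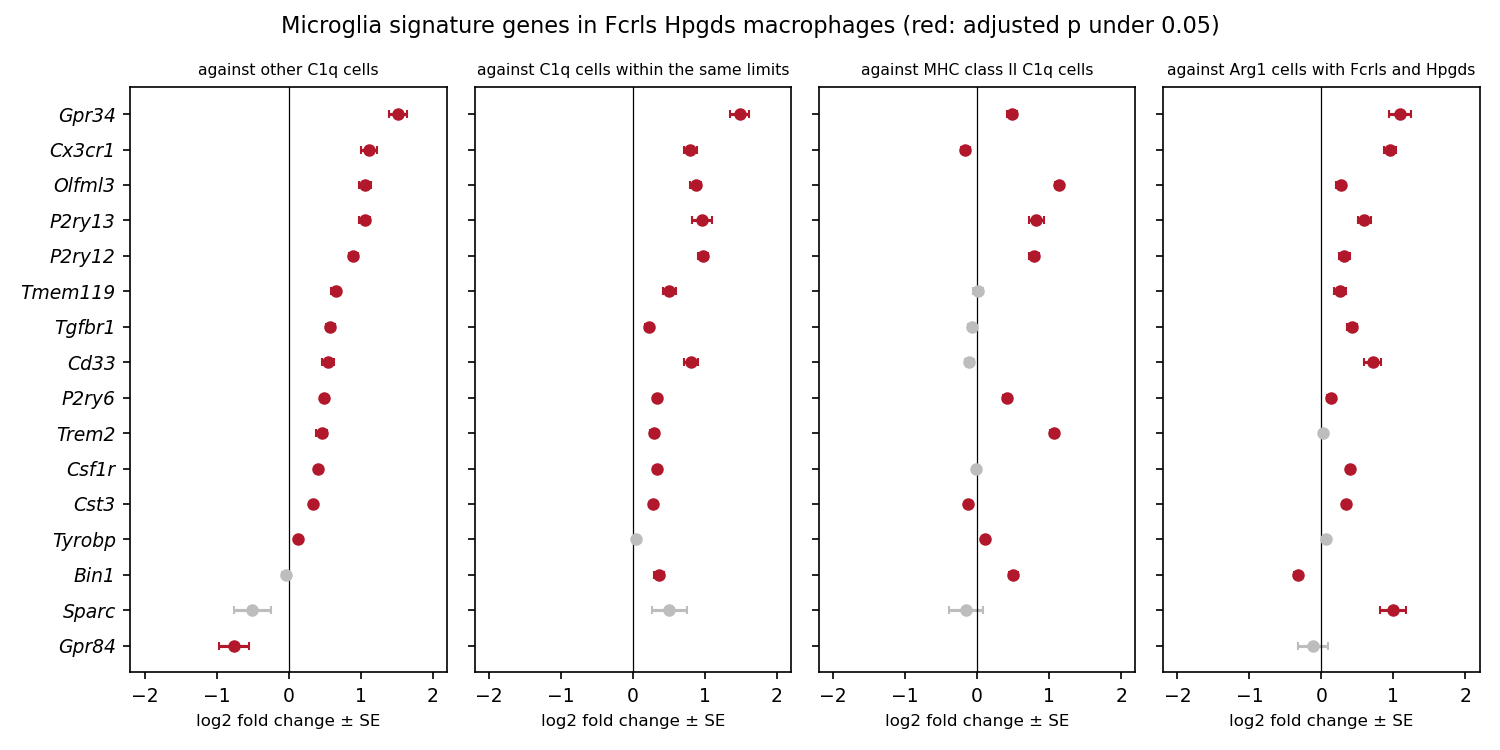
Log2 fold change with its standard error of 16 microglia signature genes in Fcrls Hpgds macrophages, against 4 sets of C1q cells that share the members; red points passed an adjusted p of 0.05 and grey points did not. Gpr34 stands at 1.51, 1.48, 0.48 and 1.09 from left to right.

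Glycolysis genes were mostly lower in members than in Arg1 cells. Against MHC class II cells that list had 4 of 20 higher and 6 lower (median log2 fold change -0.02), against backgrounds of 24.1% and 26.1%. Against Arg1 cells, of 21 glycolysis and hypoxia genes 19 were lower and 0 higher. In that comparison, of 21 wound and inflammatory genes 14 were lower and 0 higher, and of 17 chemokines 10 lower and 3 higher. The background against Arg1 cells was 10.9% higher and 11% lower. Hmox1, haem oxygenase, had 489, 795 and 2353 CPM in members, against 925, 1738 and 3068 CPM (-1.08 ± 0.13, edgeR adjusted p 3.34e-06), and Pf4, platelet factor 4, 311, 770 and 1071 CPM, against 500, 1591 and 2681 CPM (-1.15 ± 0.11). Both were lower in 14 of 14 hearts, with overlapping ranges. Ranges without overlap were rare in this comparison, at 0.0104% of genes higher and 0.0522% of genes lower in members. Higher were Tmem176b and Tmem176a, a divergent pair of membrane proteins whose exons overlap on opposite strands (1.48 ± 0.11 and 1.37 ± 0.13), Hspa1a, a heat shock protein with a near-identical copy in Hspa1b (1.39 ± 0.14), and Ighm, the heavy chain of IgM (1.63 ± 0.12, 14 of 14 hearts). The 5 B cell markers, Ighm among them, summed to 48.1 to 135 CPM in members, against 15.4 to 71.0 CPM; their part in it was not tested. F10 was lower in members in 13 of 14 hearts (-0.83 ± 0.18, edgeR adjusted p 0.00176), a call that was lost without the pairing by heart. F7 stood at a median of 1.80 CPM in members over 18 hearts and 5.95 CPM in Arg1 cells over 14, with no test.

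Lyve1 cells could be compared in part. Only 127 C1q cells had 2 or more Lyve1 molecules with the other limits met, no heart had 20 of them, and that comparison could not be fitted. With no other limit, 444 cells in 10 hearts with at least 20 each gave 2590 called genes of 7390 (35%, with 16.8% higher and 18.2% lower). The 5 cavity macrophage markers summed to 133 to 482 CPM in members, against 1612 to 7677 CPM in these cells, and their part in the result was not tested. Of these markers, Prg4 and Gata6 were limited by the rule in members alone. With both sets limited to cells of 10000 to 40000 molecules 939 genes were called. Fcna, a ficolin, had 3.72, 8.85 and 21.3 CPM in members, against 292, 624 and 799 CPM (-5.96 ± 0.18, edgeR adjusted p 1.58e-12, 10 of 10 hearts), and Slamf7, an adhesion receptor, 166, 280 and 350 CPM, against 8.39, 21.5 and 82.3 CPM (3.39 ± 0.21, edgeR adjusted p 4.88e-09). Neither had overlapping ranges, which held for 2.45% of genes lower and 1.95% of genes higher in members. Il7r, the interleukin 7 receptor, was higher by 3.09 ± 0.29.

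Among themselves, the members of different hearts varied most in Ccl7, Vegfa, Cxcl1, Hspa1b and Cbr2. Over the 1559 genes with at least 100 CPM in the median heart, the highest heart of a library stood at a median of 1.28 times its lowest (geometric mean over the 3 libraries), and the 95th percentile of this ratio was 1.70. Ccl7, a monocyte chemokine, had the largest spread, 3.29 times, with 293 to 486 CPM over hearts of library 1, 26.7 to 126 CPM in library 2 and 29.3 to 133 CPM in library 3. Vegfa, the endothelial growth factor, followed with 3.04 times, Cxcl1, a neutrophil chemokine, with 2.93 times and Hspa1b with 2.84 times. Cx3cr1, with 2.67 times, was the most variable of the microglia signature genes at that level. These spreads include any effect of genotype and time, which cannot be told apart here.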

How the data were processed

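The deposited tables held counts, the molecules per gene and cell given by the BD Rhapsody WTA Analysis Pipeline (release 2.0b1 for library 1 and 1.10 for libraries 2 and 3, per the file headers), not normalized. The genome build was GRCm38 and the annotation GENCODE M19, per the file headers; the sources used here do not say whether counting used strand. The 18 tables, 1 per tag, were read with pandas 2.3.3 and numpy 2.4.6, cells with at least 200 genes were kept, and a day in a run name was not used as a time. A tag stands for 1 heart and was the replicate. The table that ties tags to genotypes and times was not used here.

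Counts of each cell set were summed per heart where at least 20 cells were present, and tested with edgeR 4.0.16 in R 4.3.3 (quasi-likelihood F test, TMM scaling, filterByExpr, the heart as a block, Benjamini-Hochberg adjusted p under 0.05). Sets of the same heart share the animal, which is the source of the pairing. The 22 genes of the rule and its markers stayed in the totals and were not tested. CPM are counts scaled to the total of the set in a heart, before TMM scaling. Checked on simulated counts for the comparison with other C1q cells (10311 genes), the test recovered 42.9% of 1.25-fold changes, 92.7% of 1.5-fold changes and 100% of larger ones. The simulation gave every gene the same dispersion and let heart effects act on both sets alike. It counted only changed genes that passed the filter. These rates may therefore overstate those in the real counts.

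Shares of cells with a molecule came from cells thinned to 5000 molecules, which left out 19 members and 612 other C1q cells, with exact intervals that cover counting error only. T cells without C1q were given beside them; they also carry macrophage transcripts and are no clean measure of free RNA. Scrublet, run through scanpy 1.11.5, called 0, 1 and 0 doublets in the 3 libraries and so did not work as a caller; no doublets were removed, and leaving out the 2% highest scores was an alternative. Genes were named by rule: changed the same way in every heart, at least 20 CPM in the higher set, the 12 largest rises and falls against other C1q cells, 8 within the same limits and 6 elsewhere, the extremes of each of 21 lists, and F7, F3 and F10; further members of the lists are named as examples. The members and lists were chosen with earlier results of these data known. Clec7a and Mx2 were not analysed here. Some genes of the lists count in the totals and are not reported here by name.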

Additional observations from a re-analysis of the deposited data

Results flagged for a closer look

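Within a library, the hearts' levels in members were searched for a highest or lowest heart that stood apart from the others by more than Dixon's 95% limit. Of 162 values 17 did, and chance alone marks about 1 in 20 such groups. Hearts held as few as 47 members, so values near 0 CPM, such as those of Alox15 and Fam20a, rest on very few molecules.

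In library 1, tag 10, the heart with the fewest members of that library, accounted for 5 high values and 1 low one in members. Ackr3 stood at 7.85 CPM (next heart 2.54), Il6 at 7.85 CPM (2.58), Alox15 at 0.714 CPM (0.414), Ms4a8a at 28.5 CPM (11.2) and Gas6 at 309 CPM (235), and Isg15 at 16.4 CPM was the lowest (58.5 in the next). F7 was highest in tag 12 of library 1, at 13.96 CPM (next heart 4.27).

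In library 2, F7 was highest in tag 4 at 3.06 CPM (1.83), as was Gpr84 at 11.02 CPM (2.41). Tag 3 was highest in Dbp at 22.0 CPM (15.3) and P2ry13 at 35.8 CPM (28.8). Tag 5 was highest in Fam20a at 5.87 CPM (1.53) and Mlxipl at 8.80 CPM (1.83), and lowest in Alox15 at 0 CPM (1.22).

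In library 3, Ccl24 was highest in tag 7 at 23.4 CPM (6.08), Ctsk in tag 12 at 65.0 CPM (18.6), and Fam20a was lowest in tag 9 at 0 CPM (0.998).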

How the results depend on the processing

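Of 107 single genes named over all comparisons, 93 kept their direction and their side of the threshold under every alternative run and 14 lost the call under at least 1, among them B3galnt1, Npl and Clec4e within the same limits and F10 against Arg1 cells. Against other C1q cells, Vsig4 was lower overall and 0.38 in library 1 alone, and Mmp14 was higher overall and -0.0801 in library 1 alone; the cause was not tested. F7 kept its call under each alternative, with -2.84 to -2.63 when 1 library was left out. Without the pairing by heart (no replicate block), 2822 genes were called against other C1q cells, 935 within the same limits and 599 against Arg1 cells. Single libraries gave 2908, 1417 and 2213 calls in libraries 1, 2 and 3 against other C1q cells, and 319 and 374 in libraries 2 and 3 within the same limits, with fewer hearts in each. With C1q at 0.5% or more in the comparison cells the counts were 2839 and 499. Leaving out 1 library gave 3413 to 3750 calls against other C1q cells, 910 to 1832 within the same limits, 3558 to 3853 against MHC class II cells, 1774 to 2354 against Lyve1 cells and 441 to 2059 against Arg1 cells. Cells of 10000 to 40000 molecules gave 939 calls against Lyve1 cells. Leaving out 1 library put the median share of members at 15.9 to 27.3%. Thinning lowered the share of members with a molecule to 0.955% for F7, 25.2% for Gpr34, 30.5% for P2ry12, 13.5% for P2ry13 and 58.3% for Cx3cr1, by construction.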

Other observations

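Against other C1q cells, the immediate early and stress genes had 12 of 24 higher and 5 lower in members, with Fos, a subunit of the AP-1 factor, higher by a log2 fold change of 0.67. Selenoproteins and antioxidant enzymes had 4 of 29 higher and 13 lower, although Selenop, which carries selenium in plasma, was among the markers given with the rule. Gpx3, a secreted glutathione peroxidase, was higher by 0.81, and Slc7a11, the cystine importer, lower by -1.84. Complement genes other than C1q had 2 of 15 higher and 8 lower. The background was 21.9% higher and 22.2% lower.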
